A study of Arabidopsis thaliana with 18 samples.

Results

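CYS1 (AT5G12140) and CP1 (AT4G36880) of Arabidopsis thaliana encode a protease inhibitor and a protease, and their transcripts were followed through total, polysomal and non-polysomal RNA in wild type and gcn2. CYS1 is cystatin-1, a phytocystatin, and CP1 is a cysteine proteinase that the RefSeq gene table also lists as RD21A-LIKE PROTEASE1 (RDL1). Each gene was read by 1 probe set of the Affymetrix ATH1 array, so that the 2 genes stand for 2 of the 22746 probe sets tested. The symbol CP1 is also a synonym of 1 other gene in that table, AT4G11310, which is not meant here. Named genes are here the 1551 probe sets to which the RefSeq gene table gave a symbol. CYS1 was chosen because it had the largest loading on polysomes of these named genes in wild type and the fourth largest in gcn2. CP1 was chosen because it was among the 5 named genes with the smallest p-values for a lower signal in gcn2 total RNA. Those values, and the fraction against total RNA values that share arrays with them, are therefore given as descriptions with no test.

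Papain-like cysteine proteases are made as inactive precursors, travel through the secretory pathway to the vacuole or the apoplast, and degrade proteins there during senescence, defence and stress. Phytocystatins are small proteins that block such proteases by inserting into the active-site cleft, and they are known for holding proteolysis in check in wounded or stressed leaves and in seeds. GCN2 is a protein kinase that senses uncharged tRNA and, by phosphorylating eIF2alpha, limits the start of translation. A transcript's place in a sucrose gradient shows how many ribosomes it carries, since transcripts with several ribosomes sediment toward the bottom.

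All 18 arrays came from the aerial part of 10 day old seedlings of the line Landsberg erecta, which both genotypes share. The 6 groups were wild type total RNA, wild type polysomal RNA, wild type non-polysomal RNA and the same 3 RNA types of gcn2, with 3 arrays each. The labels name neither the gcn2 allele nor an added treatment, and they do not say that the replicates grew separately, so that the spread between arrays may be technical. Polysomal RNA was the pool of the 6 bottom gradient fractions and non-polysomal RNA that of the 6 top fractions. Plants grew under 16 h of light and were frozen 4 h after the lights came on.

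The deposited log2 signals shared a common scale, with array medians of 5.05 to 5.18 and lower quartiles of 3.21 to 3.52, and arrays of 1 group correlated at 0.974 to 0.994. A value is thus relative to the whole RNA type, and neither the amount of RNA in a fraction nor the number of cells behind it is measured. The leaf transcripts LHCB4.2 and PSAN, which encode photosystem proteins, were at 11.1 and 11.995 in wild type total RNA. PYK10, a beta-glucosidase known from roots and hypocotyls, was at 10.8. The BioB and BioC control signals were 9.88 to 10.3 on non-polysomal arrays against 8.62 to 9.56 on polysomal arrays. For actin, GAPDH and ubiquitin, the 3′ control probe sets exceeded their 5′ counterparts by 3.04 to 4.19 on non-polysomal, 2.69 to 3.23 on polysomal and 2.16 to 2.40 on total RNA arrays. The part of these control differences in the results on fractions was not tested. GCN2 itself was not analysed here, so that no transcript checks the genotype labels.

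The CYS1 transcript lay on the polysomal side of every gradient in both genotypes. In wild type its log2 signal on the polysomal arrays was 10.2, 10.4 and 9.86 in replicates 1, 2 and 3. On the non-polysomal arrays it was 7.93, 7.88 and 7.19. The lowest polysomal array exceeded the highest non-polysomal array by a wide margin, and the fractions did not overlap, as was the case for 43.5% of all probe sets. Fraction arrays of the same genotype and replicate number were taken as 1 gradient, which the labels do not state. Per gradient the polysomal signal was 4.72, 5.70 and 6.34 times the non-polysomal signal.

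In gcn2 the CYS1 signal was 10.3, 10.1 and 9.72 on the polysomal arrays and 8.54, 8.38 and 7.14 on the non-polysomal arrays. The fractions again did not overlap, as for 38% of all probe sets. The third gcn2 gradient, at 6.01 times, resembled the wild type gradients, whereas the first and second, at 3.32 and 3.34 times, lay below them. In both genotypes the array of replicate 3 was the lowest of its group in polysomal as well as in non-polysomal RNA, and more so in the latter.

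**Figure D1:**
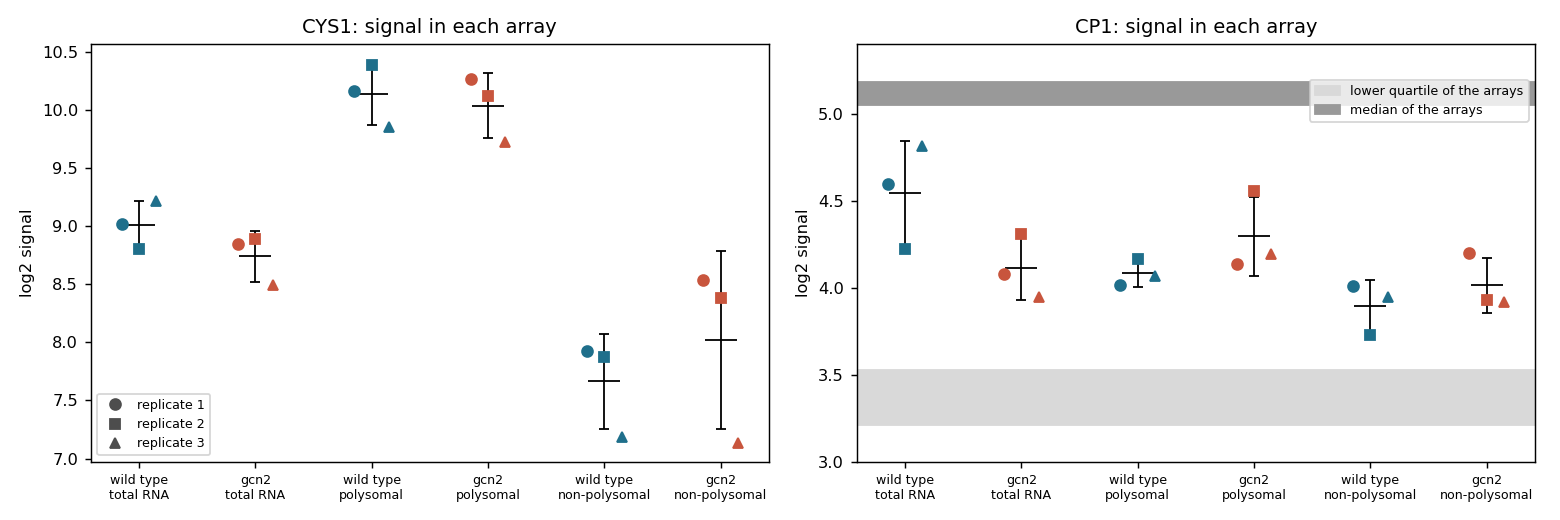
Log2 signal of CYS1 (left) and CP1 (right) on each of the 18 arrays, by group and replicate, with the group mean and SD (n = 3). The CYS1 signals separate by RNA type in both genotypes, whereas all CP1 signals lie between the lower quartiles and the medians of the arrays, drawn as grey bands.

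Expressed as loading, which is polysomal log2 signal less non-polysomal log2 signal, the mean was 2.47 for CYS1 in wild type (SE 0.29) and 2.02 in gcn2 (SE 0.29), that is 5.55-fold and 4.05-fold. The SD of the loading between gradients was 0.22 in wild type and 0.49 in gcn2 (n = 3 each). CYS1 ranked 11th of 22746 probe sets in wild type and 44th in gcn2, while the median of all probe sets was −0.073 and −0.035. At the edge of the choice in wild type, HTB2 was the last named gene taken at 1.74 and ISU1 the first left out, also at 1.74. In gcn2 COR15A at 1.74 was the last one taken and ISU1 at 1.72 the first left out. Of all probe sets 28.5% passed an adjusted p of 0.05 in wild type loading and 28.5% in gcn2 loading in limma, from which nothing is read for CYS1. Without gcn2 non-polysomal replicate 3, the array with the lowest CYS1 signal, the gcn2 loading was 1.58.

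Set against total RNA, CYS1 was both enriched in polysomal RNA and depleted from non-polysomal RNA. In total RNA its log2 signals were 9.02, 8.80 and 9.22 in wild type and 8.84, 8.89 and 8.49 in gcn2. Wild type polysomal RNA stood above total RNA by 1.13 (SE 0.29) and wild type non-polysomal RNA at −1.35 (SE 0.29) relative to it, without overlap of the arrays in either case. In gcn2 the polysomal excess was 1.30 (SE 0.29), again without overlap. The gcn2 non-polysomal difference was −0.72 (SE 0.29), and here 1 array, replicate 1 at 8.54, lay within the range of total RNA. Without gcn2 non-polysomal replicate 3 it was −0.28. Arrays do not overlap between polysomal and total RNA for 30.6% of all probe sets in wild type and 38.5% in gcn2, and between non-polysomal and total RNA for 45.8% in wild type and 47.5% in gcn2.

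The order of the CYS1 group means followed RNA type and not genotype. It ran from wild type polysomal at 10.1 ± 0.27 and gcn2 polysomal at 10.0 ± 0.28 through wild type total at 9.01 ± 0.21 and gcn2 total at 8.74 ± 0.22 to gcn2 non-polysomal at 8.02 ± 0.77 and wild type non-polysomal at 7.66 ± 0.41 (SD, n = 3 each). The 2 genotypes did not differ beyond their spread within any RNA type, and gcn2 total and gcn2 non-polysomal RNA, neighbours in this order, overlapped. CYS1 lay at the 96.9th to 98.1st percentile of the polysomal arrays, at the 92.2nd to 95.4th of the total RNA arrays and at the 82.1st to 94.0th of the non-polysomal arrays.

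The comparison between genotypes asked whether the transcript or its ribosome association changed without GCN2. For CYS1 none of the 4 tests passed in limma over all probe sets. The gcn2 minus wild type difference was −0.27 in total RNA (SE 0.29, 95% interval −0.88 to 0.33, limma adjusted p = 1), with arrays that overlapped. It was −0.099 in polysomal RNA (SE 0.29, interval −0.70 to 0.51, limma adjusted p = 0.997) and 0.35 in non-polysomal RNA (SE 0.29, interval −0.25 to 0.96, limma adjusted p = 0.704). In polysomal RNA the sign turned without wild type polysomal replicate 2, to 0.027, or gcn2 polysomal replicate 3, to 0.057. In non-polysomal RNA the difference was 0.79 without gcn2 non-polysomal replicate 3, and it was 0.094 and 0.17 without gcn2 non-polysomal replicates 1 and 2 and 0.12 without wild type non-polysomal replicate 3, none of which passed.

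The loading of CYS1 was lower in gcn2 by a difference of −0.45 (SE 0.41, 95% interval −1.31 to 0.40, limma adjusted p = 0.978), and the gradients of the genotypes overlapped. CYS1 was chosen on the loading of both genotypes, so that this sign is not independent of the choice. The difference was −0.89 without gcn2 non-polysomal replicate 3 and −0.19 without gcn2 non-polysomal replicate 1, the ends of the range over arrays left out. Few transcripts passed in any comparison of the genotypes, namely 0.0352% of probe sets in total, 0.022% in polysomal and 0.0791% in non-polysomal RNA, and 0.0044% for the change of loading. The arrays of the genotypes did not overlap for 7.06%, 13.5% and 12.7% of probe sets in total, polysomal and non-polysomal RNA, and neither CYS1 nor CP1 was among these. In a fit of the 12 fraction arrays blocked by replicate the calls went from 5 to 127 in polysomal and from 18 to 429 in non-polysomal RNA, and CYS1 did not pass there either (limma adjusted p = 0.907 and 0.296, and 0.602 for the change of loading).

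**Figure D2:**
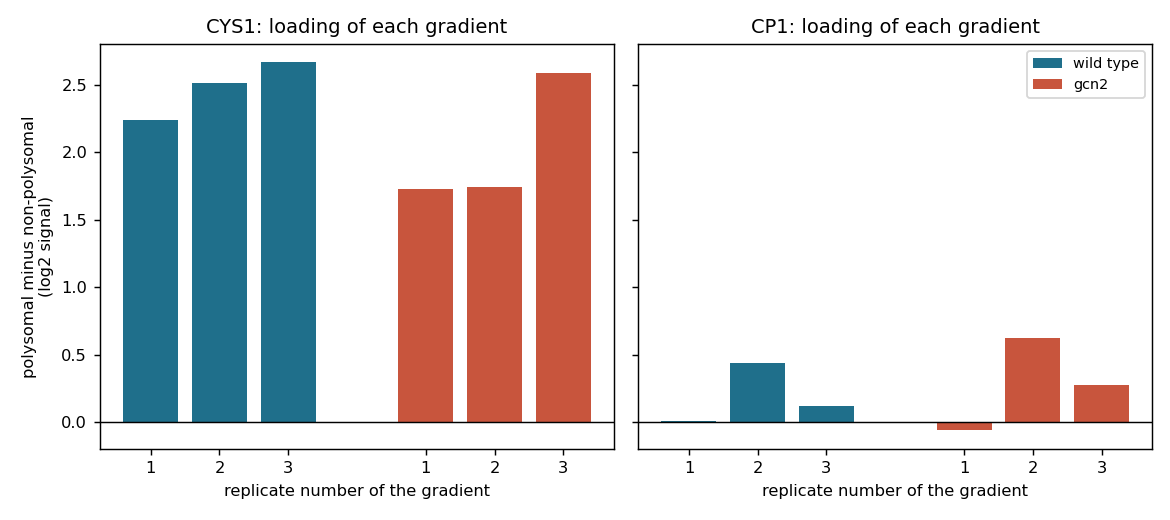
Loading of CYS1 (left) and CP1 (right) in each gradient, as polysomal minus non-polysomal log2 signal of the arrays with the same replicate number. CYS1 lies between 1.73 and 2.67 in all 6 gradients, and CP1 between −0.061 and 0.63.

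CP1 gave a dim signal in every group. It lay between the 30.7th and the 46.3rd percentile of the arrays, above the lower quartile and below the median of each array, and no detection call came with the values. Its log2 signals in total RNA were 4.598, 4.22 and 4.82 in wild type and 4.08, 4.31 and 3.95 in gcn2. The gcn2 arrays were the lower ones except that gcn2 replicate 2 lay above wild type replicate 2, so that the groups overlapped. The difference that led to the choice of CP1 was −0.43 (SE 0.16). The limit of the choice lay between CP1 at an unadjusted limma p of 0.0141 and PYE, the next named gene, at 0.0219. These p-values only mark the choice, and nothing is read from them for CP1. Without wild type replicate 2 the difference was −0.59, and without wild type replicate 3 it was −0.30.

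In the fractions CP1 did not have the genotype order of total RNA. Its polysomal log2 signals were 4.02, 4.17 and 4.07 in wild type and 4.14, 4.55 and 4.196 in gcn2, which overlapped in 1 pair of arrays. The gcn2 minus wild type difference there was 0.21 (SE 0.16, 95% interval −0.12 to 0.55, limma adjusted p = 0.951). Its non-polysomal signals were 4.01, 3.73 and 3.95 in wild type and 4.197, 3.93 and 3.92 in gcn2, which overlapped. The difference there was 0.12 (SE 0.16, interval −0.22 to 0.46, limma adjusted p = 0.840). Neither passed, and both turned sign under centring on the BioB and BioC controls of the array, to −0.042 and −0.046.

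The loading of CP1 was small beside that of CYS1. Per gradient it was 0.0052, 0.44 and 0.12 in wild type and −0.061, 0.63 and 0.28 in gcn2, with polysomal signal higher in 5 of 6 gradients. Replicate 2 was the highest in both genotypes and replicate 1 the lowest. The mean was 0.19 in wild type (SE 0.16, 95% interval −0.15 to 0.52, limma adjusted p = 0.412) and 0.28 in gcn2 (SE 0.16, interval −0.055 to 0.62, limma adjusted p = 0.217). The wild type fractions did not overlap, but only by the margin between a polysomal array at 4.02 and a non-polysomal array at 4.01. The difference in loading between genotypes was 0.093 (SE 0.23, interval −0.38 to 0.57, limma adjusted p = 0.997). Its sign turned without gcn2 polysomal replicate 2, to −0.036. The same centring on controls moved the median of all probe sets to 0.86 in wild type and 0.81 in gcn2. CP1 loading was then 1.12 and 1.13 and passed (limma adjusted p = 0.00166 and 0.0019). Of all 22746 probe sets, 17065 in wild type and 15607 in gcn2 were called higher under it.

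Wild type total RNA had the highest CP1 mean of the 6 groups. The order was wild type total at 4.55 ± 0.30, gcn2 polysomal at 4.30 ± 0.23, gcn2 total at 4.11 ± 0.18, wild type polysomal at 4.08 ± 0.077, gcn2 non-polysomal at 4.01 ± 0.16 and wild type non-polysomal at 3.90 ± 0.15 (SD, n = 3 each). All neighbours in this order overlapped in their arrays. In wild type, polysomal RNA stood at −0.46 (SE 0.16) and non-polysomal RNA at −0.65 (SE 0.16) relative to total RNA, both without overlap. In gcn2 the values were 0.18 (SE 0.16) and −0.097 (SE 0.16), both with overlap. These comparisons share the total RNA arrays on which CP1 was chosen.

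**Figure D3:**
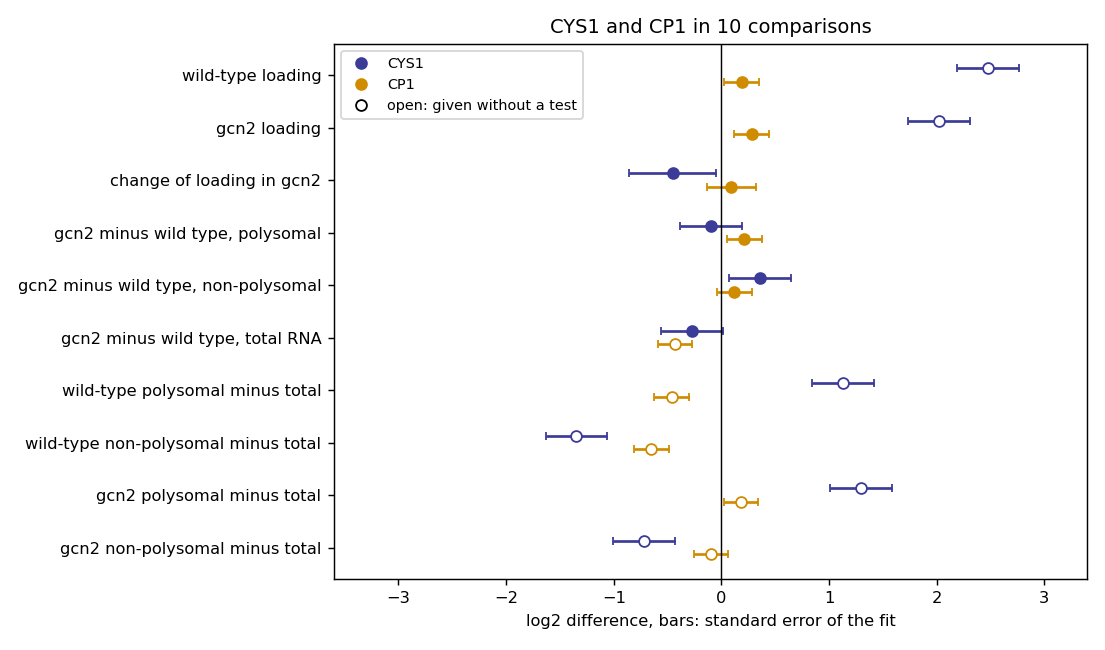
Log2 differences of CYS1 and CP1 in 10 comparisons, with the SE of the fit. Open points are given without a test. The open CYS1 points for loading lie at 2.47 and 2.02, while the values of both genes in the genotype comparisons lie between −0.45 and 0.35.

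Other genes of cysteine proteolysis were set beside the pair. A locus was counted as measured where the annotation gave it a probe set of its own. That held for 3 of 7 phytocystatin loci, 18 of 31 papain-like cysteine proteases, 4 of 4 vacuolar processing enzymes and 2 of 2 further inhibitors. The annotation had no entry for 8730 of the 22746 probe sets and several genes for 503. The remaining loci may therefore be on the array without being counted here. In limma 15.2% of all probe sets were called higher and 13.3% lower in wild type loading, and 15.1% higher and 13.4% lower in gcn2 loading. The other measured phytocystatins, AT5G47550 and AT5G05110, had wild type loadings of −0.11 (SE 0.18, adjusted p = 0.695) and 0.076 (SE 0.18, adjusted p = 0.793) in limma. In gcn2 they stood at 0.027 and 0.45 (SE 0.18 each, limma adjusted p = 0.938 and 0.0770), and AT5G05110 passed there in a fit of the 12 fraction arrays blocked by replicate (adjusted p = 0.0193) and when only the gcn2 fraction arrays were fitted (0.0479). Under control centring both were called higher in both genotypes. AT5G47550 stood at 0.83 and 0.88 (limma adjusted p = 0.0136 and 0.0114). AT5G05110 stood at 1.01 and 1.30 (limma adjusted p = 0.00551 and 7.32e-04). That centring called 17065 of all 22746 probe sets higher in wild type and 15607 in gcn2.

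On the deposited scale AT5G47550 also differed from CYS1 in its place against total RNA. Its group means were 8.25 ± 0.038 in polysomal, 8.36 ± 0.077 in non-polysomal and 7.69 ± 0.29 in total RNA of wild type, and 8.39 ± 0.14, 8.36 ± 0.46 and 7.66 ± 0.10 in gcn2 (SD, n = 3 each). Both of its fractions lay above total RNA on that scale, whereas for CYS1 only the polysomal fraction did. Control centring moved the median of all probe sets in non-polysomal against total RNA from 0.093 to −0.95 in wild type. In gcn2 that median moved from 0.080 to −1.10. All probe sets shift alike under it, so that the place of non-polysomal AT5G47550 depends on the scale.

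Among the 18 papain-like proteases, CP1 included, 2 were called higher and 2 lower in wild type loading, and 1 higher and 3 lower in gcn2. The list had a median loading of −0.095 in wild type and −0.013 in gcn2, close to the −0.073 and −0.035 of all probe sets. AT4G01610 rose by 0.56 in wild type (SE 0.14, limma adjusted p = 0.00595) and by 0.87 in gcn2 (SE 0.14, adjusted p = 1.39e-04). Both of its fractions lay below total RNA on the deposited scale, unlike polysomal CYS1. Its polysomal, non-polysomal and total means were 8.00, 7.44 and 8.96 in wild type and 8.01, 7.14 and 8.78 in gcn2. AT4G16190 fell by 1.21 (SE 0.27, limma adjusted p = 0.00243) and fell by 1.07 (SE 0.27, adjusted p = 0.00562) in wild type and gcn2. AT2G27420 fell by 0.73 in wild type (SE 0.18, limma adjusted p = 0.00413) and fell by 1.64 in gcn2 (SE 0.18, adjusted p = 2.02e-06). Its polysomal means of 3.92 in wild type and 3.93 in gcn2 were dim, below the 4.08 and 4.30 of CP1. Its non-polysomal means were 4.65 and 5.57. AT3G45310, at 0.41 in wild type, did not pass, but did with the replicate block on 18 or 12 arrays (limma adjusted p = 0.0462 and 0.0476), with array weights, under control centring and without wild type non-polysomal replicate 1. In gcn2, at 0.36, it passed under control centring and without gcn2 non-polysomal replicate 3 (limma adjusted p = 0.0477). AT1G29080, at −0.38 in wild type, passed with the block on 18 arrays (limma adjusted p = 0.0480), with only the wild type fraction arrays (0.0492), with a trended robust prior (0.0481) and with array weights (0.0205). In gcn2 it passed as lower without gcn2 non-polysomal replicate 2 (0.0401) and as higher, at 0.65, under control centring (0.0467). AT1G29080 was dim, with a mean log2 signal of 3.08 over the 18 arrays, whose lower quartiles were 3.21 to 3.52. AT1G02305 was called lower in both genotypes with quantile normalization, at −0.46 and −0.42 (limma adjusted p = 0.0145 and 0.0236), in wild type with array weights (0.0206), and in gcn2 without gcn2 non-polysomal replicate 2 (0.0265). Under control centring AT4G16190 stood at −0.27 in wild type and −0.23 in gcn2 and lost both calls, and AT2G27420 turned sign in wild type, to 0.20, and lost its call there. The call of AT2G21430 in wild type, at 0.59 (SE 0.19, limma adjusted p = 0.0267), was lost without wild type polysomal replicate 1 (0.0983) or 2 (0.0841) or non-polysomal replicate 1 (0.0510) or 3 (0.134). AT2G21430 was as dim as CP1, with a mean log2 signal of 4.16 over the 18 arrays. AT3G49340 in gcn2, at −0.42 (SE 0.15, limma adjusted p = 0.0465), lost its call without either of gcn2 polysomal replicates 2 and 3 (0.191 and 0.0938) or any of the 3 gcn2 non-polysomal replicates (0.0777 to 0.0948). It was also lost with quantile normalization (0.0923) and when only the gcn2 fraction arrays were fitted (0.0701), and under control centring it turned sign to 0.43 (0.189). In wild type it passed without non-polysomal replicate 2, at −0.47 (limma adjusted p = 0.0233). AT3G49340 was also dim, with a mean log2 signal of 3.33 over the 18 arrays.

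The vacuolar processing enzymes are legumain-type cysteine proteases that mature vacuolar proteins. GAMMA-VPE is a family member known from vegetative tissue. It rose in polysomal over non-polysomal RNA by 1.59 in wild type (SE 0.28, limma adjusted p = 2.93e-04) and by 1.29 in gcn2 (SE 0.28, adjusted p = 0.00163). Its polysomal, non-polysomal and total means were 9.89 ± 0.30, 8.30 ± 0.43 and 9.55 ± 0.74 in wild type. In gcn2 they were 9.45 ± 0.16, 8.16 ± 0.21 and 10.0 ± 0.20 (SD, n = 3 each). Unlike for CYS1, its polysomal mean lay below total RNA in gcn2 on the deposited scale. ALPHA-VPE, BETA-VPE and DELTA-VPE did not pass in either genotype on the deposited scale, with loadings of −0.24 to 0.21 in wild type and 0.071 to 0.41 in gcn2. DELTA-VPE passed in gcn2 in the blocked fit of the fraction arrays (limma adjusted p = 0.0239). Under control centring 3 of the 4 enzymes were called higher in wild type, all but DELTA-VPE, and 4 of 4 in gcn2. Of all 22746 probe sets, 17065 in wild type and 15607 in gcn2 were called higher under that centring. SERPIN1 is a serine protease inhibitor family protein known to act on RD21-type cysteine proteases. It rose by 0.79 in wild type (SE 0.19, limma adjusted p = 0.0042) and by 0.99 in gcn2 (SE 0.19, adjusted p = 6.45e-04). Both of its fractions lay below total RNA on the deposited scale. Its polysomal, non-polysomal and total means were 7.60, 6.81 and 8.29 in wild type and 7.80, 6.81 and 8.37 in gcn2. AT1G72290, the other inhibitor locus, stood at −0.070 and 0.046 and did not pass. Under control centring it passed, as most probe sets did, at 0.87 and 0.89 (limma adjusted p = 0.0106 and 0.0102). Its group means of 2.34 to 2.65 lay below the array lower quartiles of 3.21 to 3.52, so that its signal was very dim.

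**Figure D4:**
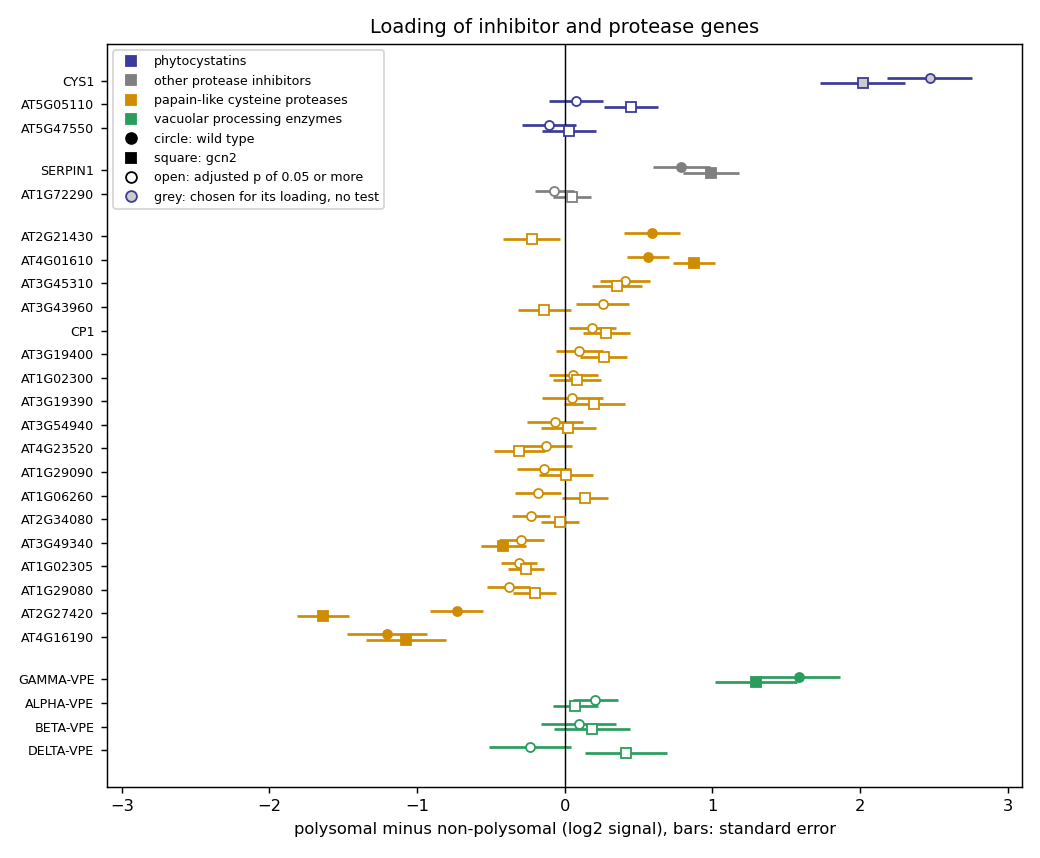
Loading of the 27 measured inhibitor and protease genes in wild type (circles) and gcn2 (squares), with SE; filled symbols passed an adjusted p of 0.05 in limma and grey ones, for CYS1, carry no test. CYS1 and GAMMA-VPE lie on the polysomal side and AT4G16190 and AT2G27420 on the non-polysomal side in both genotypes.

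Between genotypes the calls of the listed genes differed between fits. In the limma fit of all 18 arrays without a block, 0 of the 27 measured genes passed in total RNA, in polysomal RNA, in non-polysomal RNA or for the change of loading. An unadjusted p under 0.05 was found for 2, 4, 4 and 2 of them in that order, and for 566, 1225, 2603 and 1150 of all 22746 probe sets. CP1, which was chosen by that p-value, is 1 of the 2 in total RNA. With the replicate block on all 18 arrays 1 gene, AT2G27420, passed in non-polysomal RNA (limma adjusted p = 0.0342) and 0 passed in polysomal RNA, among 62 and 15 of all probe sets. Without a block AT2G27420 passed in non-polysomal RNA with quantile normalization (limma adjusted p = 0.0335), and AT3G54940 in polysomal RNA with array weights (adjusted p = 0.0339). In the blocked fit of the 12 fraction arrays, which also leaves out total RNA, 4 genes passed in non-polysomal and 2 in polysomal RNA, among 429 and 127 of all 22746 probe sets, CYS1 and CP1 not among them. In non-polysomal RNA of gcn2 against wild type, AT2G27420 stood at 0.92 (limma adjusted p = 0.0550 in the 18-array fit without a block and 0.00384 in this fit) and the phytocystatin AT5G05110 at −0.74 (adjusted p = 0.121 and 0.0149). There AT3G43960 stood at 0.65 (limma adjusted p = 0.155 and 0.0213) and AT3G54940 at 0.64 (adjusted p = 0.173 and 0.0430). In polysomal RNA DELTA-VPE stood at 0.86 (limma adjusted p = 0.765 and 0.00582) and AT3G54940 at 0.74 (adjusted p = 0.498 and 0.0370). DELTA-VPE and AT3G54940 were dim, with mean log2 signals of 3.62 and 3.66 over the 18 arrays. Leaving out arrays was not combined with the block.

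The transcripts whose pattern over the 18 arrays was most like that of CYS1 were named by Pearson correlation among 13285 other loci, as a description. They were GRXC2, a glutaredoxin (r = 0.984), the histone H2B genes HTB4 (0.975) and HTB2 (0.972), AT1G17130 (0.973) and AT3G27200 (0.972). Their loadings were 1.33 to 1.74 in wild type and 1.09 to 1.54 in gcn2, below those of CYS1. CYS1 was chosen for its large loading, which also shapes the pattern they were matched to, so that nothing is read from these loadings. For CP1 the closest were AT2G32380 (r = 0.808), OTP81, an organelle RNA editing factor (0.808), AT5G44720 (0.807), AT3G13610 (0.806) and AT5G15550 (0.804), with loadings of 0.16 to 0.62 in wild type and 0.093 to 0.64 in gcn2. The 18 points share RNA type, genotype and the array-wide scale, and no p is given.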

How the data were processed

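Total, polysomal and non-polysomal RNA of wild type and gcn2 seedlings was hybridised to 18 ATH1 arrays, 3 per group. The authors deposited log2 signals per probe set. Per the submitters' processing notes, RMA, affy and MAS5 were used, with role and version not given in the sources used here, and no scanner intensities, detection calls or depth came with the values. The array medians were close, at 5.05 to 5.18, but the distributions were not the same, with lower quartiles of 3.21 to 3.52. The values were therefore read as a transcript's place relative to its RNA type and not as its amount.

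Groups were taken from the labels. Of 22810 probe sets 64 controls were left out, and 22746 were fitted with 1 mean per group in limma 3.58.1 under R 4.3.3 (12 residual degrees of freedom, empirical Bayes, Benjamini-Hochberg adjustment over all probe sets, threshold 0.05), a fit tested on simulated data. The platform annotation gave a single gene for 13513 of them, more than 1 for 503 and no entry for 8730. The RefSeq gene table matched 13436. The precision of a value is limited by 3 arrays per group.

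CYS1, CP1 and the gene lists were chosen with earlier results of these data known. Tests of the comparisons that chose a gene are not printed, apart from the unadjusted p-values that mark the limit of the choice of CP1. The planned tests of fractions against total RNA, which share arrays with those comparisons, are not printed either. Named were CYS1, CP1, list genes that passed in either loading comparison, and the 5 loci with the highest Pearson correlation to each gene. The other listed genes were named after their values were seen. Same-numbered fraction arrays deviated together, with correlations of 0.184 to 0.588 over the 6 pairs of fraction groups. Between the polysomal arrays of the genotypes, which are different gradients, they were 0.578, 0.226 and 0.583. Between the wild type fractions they were 0.503, 0.225 and 0.498. The correlations thus cannot show that same-numbered fractions came from 1 gradient. That the numbers pair the fractions was assumed, and the values per gradient rest on it. With total RNA the correlations were −0.168 to 0.429, and no pairing was assumed. Alternatives were the replicate block, only the groups compared, quantile normalization, centring on the BioB and BioC controls, a filter on dim probe sets, a trended robust prior, array weights and leaving out each array.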

Additional observations from a re-analysis of the deposited data

How the results depend on the processing

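Centring each array on its BioB and BioC controls moved most values. CYS1 loading was then 3.41 in wild type and 2.87 in gcn2, and CP1 loading 1.12 and 1.13, which passed. CP1 between genotypes turned to −0.042 in polysomal and −0.046 in non-polysomal RNA. Against total RNA, non-polysomal CYS1 was −2.39 in wild type and −1.91 in gcn2, non-polysomal CP1 −1.69 and −1.28, and polysomal CP1 in gcn2 −0.15. The probe sets called went from 6490 to 17241 in wild type loading and from 6492 to 15850 in gcn2 loading. Of all 22746 probe sets, 17065 and 15607 were then called higher. Of the 18 papain-like proteases 13 were called higher and 0 lower in wild type, and 12 and 1 in gcn2. The phytocystatins AT5G47550 and AT5G05110 were called higher in both genotypes. CYS1 was chosen for its loading and is not counted. Leaving out 1 array each gave CYS1 in polysomal RNA between genotypes −0.24 to 0.057, the CP1 change of loading −0.036 to 0.18, CYS1 gcn2 loading 1.58 to 2.28 and CYS1 gcn2 non-polysomal against total RNA −0.98 to −0.28. With the replicate block the CYS1 change of loading stayed at −0.45 (limma adjusted p = 0.838 on 18 and 0.602 on 12 arrays), and the block changed no tested call of CYS1 or CP1. Calls between genotypes went from 5 to 15 (block, 18 arrays), 127 (block, 12 arrays) and 140 (array weights) in polysomal RNA. In non-polysomal RNA they went from 18 to 62, 429, 56 (quantile normalization) and 10 (control centring or dim probe sets left out), and to 110 without wild type non-polysomal replicate 1. In total RNA they went from 8 to 43 with array weights and to 3 with dim probe sets left out. The causes were not tested. CP1 is dim, so that it has no value where dim probe sets are left out, and without detection calls its lower bound is unknown.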
